A study of Mus musculus with 48 samples.

Results

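Total RNA of the mediobasal hypothalamus (MBH) was compared between mice given AC3174 and mice given AC170222. The comparison rests on 6 input libraries out of the 48 libraries of the study, 3 for each drug, chosen by region, kind of RNA and treatment as the sample titles give them. All mice were 9-week-old C57/Bl6 males on standard chow, fasted for 6 h and injected intraperitoneally with 10 µL per g. The groups were mice injected with AC3174, for which the protocol gives 1 µg/kg, with AC170222, for which it gives 2.5 µg/kg, with the combination of drugs, or with saline, and each had 3 libraries of this kind. In the treatment field AC170222 appears as AC710222, and the protocol names AC710222 as well, at either 2.5 or 10 µg/kg, beside exenatide (1 µg/kg). The dose that the AC170222 libraries stand for is therefore uncertain. The doses of the drugs differ, so any difference between them is one between these injections and not between compounds at a matched dose. How much of each drug the combination held, how long after injection tissue was taken and how many mice make up a library are not given in the labels. The study also holds input libraries of the dorsal vagal complex (DVC), and libraries of ribosomes pulled down from the rest of each homogenate with an antibody against ribosomal protein S6 phosphorylated at residues 240 and 244 (IP).

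AC3174 is an agonist of the receptor for glucagon-like peptide 1 (GLP-1), and AC170222 is used in this study as an agonist of cholecystokinin (CCK) receptors. Both hormones are released from the gut after a meal and curb feeding, partly through vagal afferents and the hindbrain. The MBH holds the arcuate nucleus, where neurons with Agrp and Npy drive feeding and neurons with Pomc and Cartpt restrain it. Immediate early genes such as Fos are induced within minutes to hours when neurons are activated.

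Total counts in the 6 libraries ranged from 36542586 to 66436778, and 15774 to 16563 genes had a count. Correlations across genes of log2(CPM + 2), where CPM is read counts scaled to library size, were 0.818 to 0.873 between libraries of different drugs, 0.822 to 0.836 within AC3174 and 0.836 to 0.883 within AC170222. Libraries of the same drug were thus about as far apart as libraries of different drugs. The tissue label was checked against marker lists. All 28 hypothalamic transcription factors and all 14 arcuate neuropeptides in the table passed the filter on low counts, while 4 of 18 hindbrain and vagal markers did. All 12 genes of the thalamus and zona incerta passed as well, as did 13 of 14 of forebrain neurons outside the hypothalamus. Passing the filter thus sets these libraries apart from hindbrain but does not tell the MBH from neighbouring forebrain. The pituitary hormone gene Prl had 0 counts in all 12 MBH inputs. The saline 2 library stood apart, with 12853 genes with a count, and it enters the estimate of spread.

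No gene was called different between the drugs. Of 16622 genes tested with edgeR's quasi-likelihood test, 0 were higher and 0 were lower in AC3174 at an adjusted p under 0.05, which is 0% of genes in either direction, and the lowest adjusted p was 1. An unadjusted p under 0.05 was found for 652 genes (3.92%), of which 249 had higher values (1.5%) and 403 had lower values (2.42%) in AC3174. The 3 AC3174 libraries all lay above the 3 AC170222 libraries for 588 genes (3.54%) and all below for 747 genes (4.49%). The median log2 difference (AC3174 minus AC170222) was -0.01, and 48.8% of the differences were positive. Other tests gave other counts: limma-voom called 0 genes, with a lowest adjusted p of 0.0582, and DESeq2 called 172 higher (1.03%) and 252 lower (1.52%). Of those 424 genes, 390 (92%) had a count of 0 in at least 1 of the 6 libraries, against 27.2% of all genes tested. Without the saline 2 library edgeR still called 0 genes, and 1031 (5.84%) had an unadjusted p under 0.05.

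**Figure D1:**
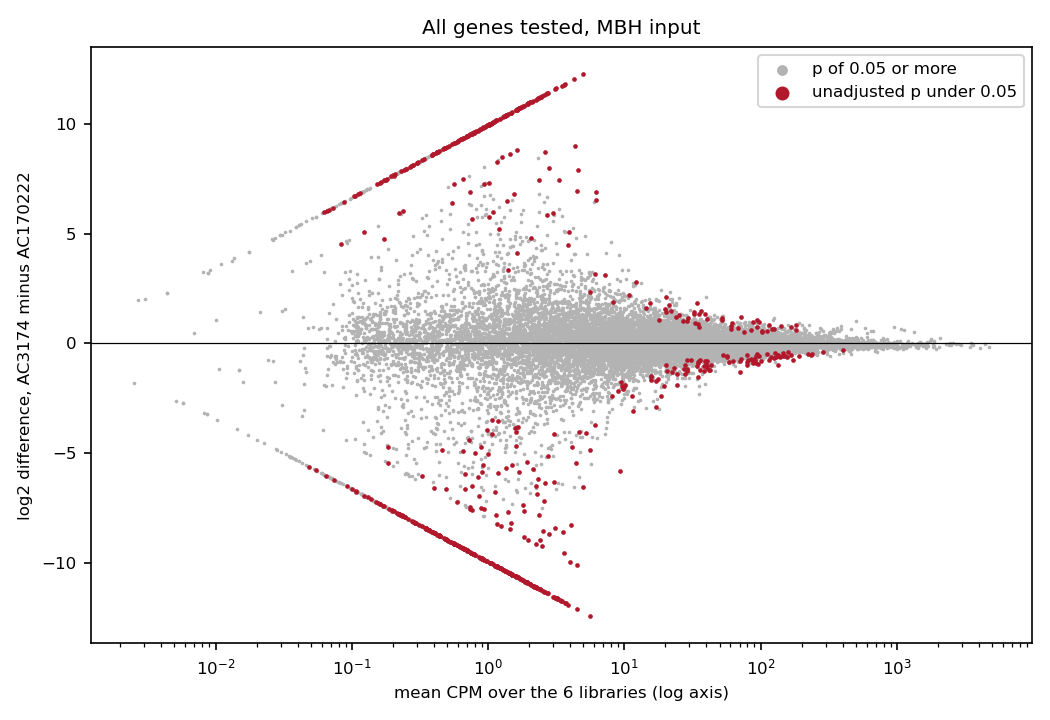
Log2 difference between AC3174 and AC170222 (vertical axis) against the mean CPM over the 6 MBH input libraries (horizontal log axis) for the 16622 genes tested, with the 652 genes of unadjusted p under 0.05 in red. The cloud narrows as the mean level grows, and the straight outer arms hold genes with 0 counts in all 3 libraries of a drug, whose fitted differences are set by the prior count.

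The depth and the spread between libraries set how precise the differences were. The 95% intervals given here are per gene and not adjusted for the number of genes tested. A call at an adjusted p under 0.05 needed a difference larger than these widths. For the 85 genes averaging 1000 CPM or more the median 95% interval reached 0.36 on the log2 scale to each side, a 1.28-fold difference. It reached 1.51-fold for the 2310 genes of 100 to 1000 CPM and 2.48-fold for the 7042 genes of 10 to 100 CPM. For the 4666 genes of 1 to 10 CPM, a class that takes in Glp1r and Cckar, it reached 22.2-fold. Differences of a few fold in such genes were therefore not detectable here.

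The targets of the drugs were at low levels and did not separate the groups. Glp1r, the GLP-1 receptor (chromosome 17, 30901817 to 30940791 on GRCm38), was at 0, 4.38 and 2.39 CPM in the AC3174 libraries and at 1.5, 1.92 and 0 CPM in the AC170222 libraries. The groups overlapped, each with a library at 0 (log2 difference 0.98 ± 2.69 SE, 95% interval -4.96 to 6.93). Cckar, the CCK receptor that carries satiety signals (chromosome 5, 53697776 to 53707705), was at 7.36, 0.651 and 5.68 CPM in AC3174 and at 9.23, 4.77 and 9.54 CPM in AC170222. These groups overlapped as well (-0.78 ± 1.86), and the sign depends on the fit, with 0.11 when the library set described further on is a covariate. Cckar was at 4.14, 7.26 and 5.09 CPM with the combination and at 0, 1.3 and 0 CPM with saline, and neither drug's difference from saline was called (adjusted p = 0.637 for AC3174 and 0.71 for AC170222, edgeR).

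Cckbr, the other CCK receptor and the main one of the brain, was at 21.8, 12.2 and 6.66 CPM in AC3174 and at 0, 16.8 and 11.8 CPM in AC170222. Its log2 difference was 0.50 ± 2.06, and it came to -0.03 without the AC3174 1 library and to -0.08 without AC170222 1. Cck, the peptide precursor, was at 19.5, 7.41 and 1.43 CPM in AC3174 and at 3.33, 7.66 and 8.18 CPM in AC170222. AC3174 held both the highest and the lowest of these values, and the difference of 0.56 ± 0.97 came to -0.54 without AC3174 1. Gcg, the GLP-1 precursor, had 0 counts in all 12 MBH inputs. In the list of GLP-1, CCK and GIP peptides and receptors, 6 of 9 genes were tested, edgeR and DESeq2 called 0, 4 differences were positive and 2 negative. Dpp4, the peptidase that cleaves GLP-1, was the list's gene without overlap. It was at 1.24, 0 and 0 CPM in AC3174 and at 2.57, 4.55 and 4.56 CPM in AC170222, with 0 counts in all combination and saline libraries (log2 difference -3.23 ± 2.57, adjusted p = 1).

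**Figure D2:**
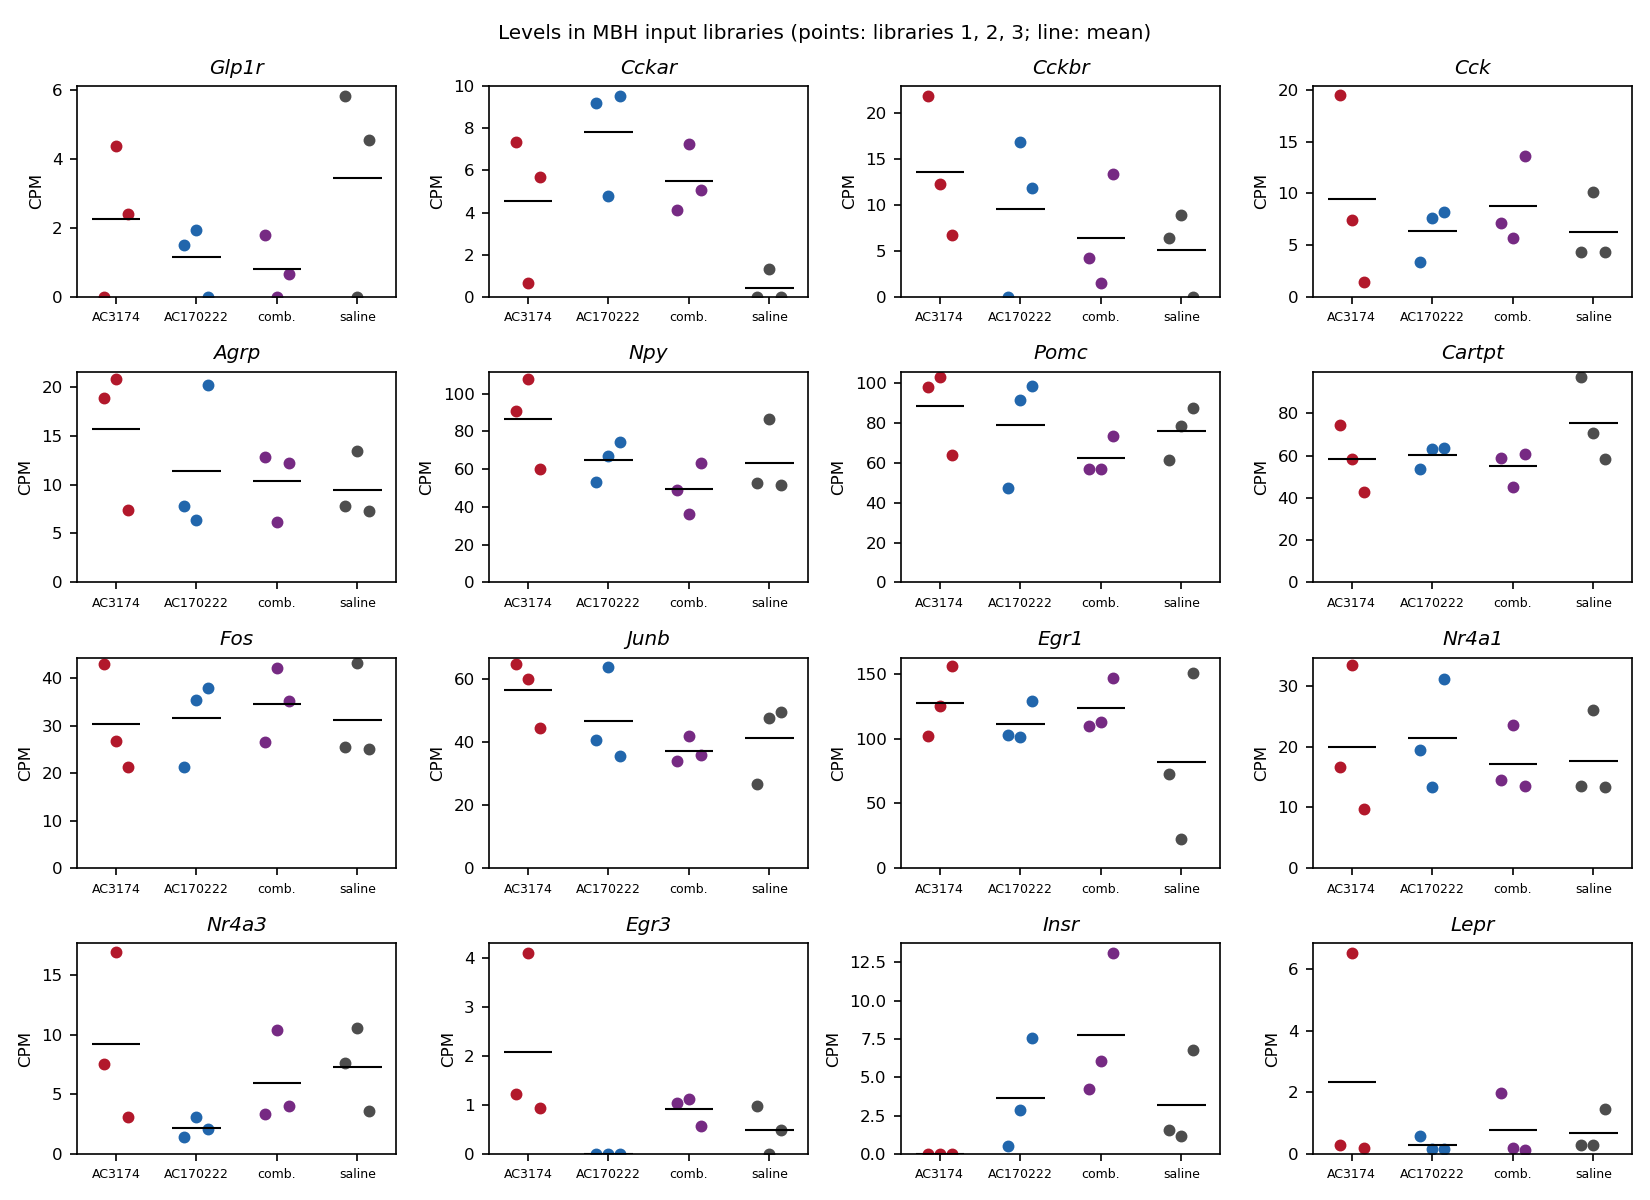
Levels in CPM (vertical axes, starting at 0) of 16 genes in the 12 MBH input libraries, by treatment, with a point per library and a line at the mean of 3 libraries. AC3174 and AC170222 overlap in all panels except those of Nr4a3 and Egr3, where AC3174 lies above, and Insr, where it lies below.

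The main arcuate feeding peptides Npy, Agrp, Pomc and Cartpt overlapped between the drugs. Npy, the orexigenic neuropeptide Y, was at 90.9, 108 and 60.1 CPM in AC3174 and at 53.3, 66.8 and 74.4 CPM in AC170222 (log2 difference 0.41 ± 0.33, 95% interval -0.31 to 1.13). Agrp, its partner in the same neurons, was at 18.8, 20.8 and 7.36 CPM in AC3174 and at 7.76, 6.33 and 20.2 CPM in AC170222. For both genes AC3174 1 and 2 were high and AC3174 3 was low, and for Agrp the third AC170222 library was close to the highest AC3174 one. Pomc, the melanocortin precursor, was at 97.9, 103 and 64.2 CPM in AC3174 and at 47.2, 91.7 and 98.6 CPM in AC170222 (0.16 ± 0.31). Cartpt was at 74.4, 58.3 and 43 CPM in AC3174 and at 53.9, 63 and 63.5 CPM in AC170222 (-0.04 ± 0.29). Their 95% intervals were -0.53 to 0.86 for Pomc and -0.67 to 0.59 for Cartpt, so differences within these bounds are compatible with the values. Over all 14 arcuate neuropeptides tested, edgeR called 0, 6 differences were positive and 8 negative, with a median of 0, against -0.01 over all genes. Nmu, the precursor of neuromedin U, was the list's gene without overlap, at 1.16 to 2.78 CPM in AC3174 and 0 to 1.14 CPM in AC170222 (2.16 ± 2.70). In tissue RNA, fewer cells of a type and less RNA per cell cannot be told apart.

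Of the receptors through which these neurons are read and controlled, Lepr and Mc4r were low and variable. Lepr, the leptin receptor, was at 0.291, 6.51 and 0.181 CPM in AC3174 and at 0.569, 0.151 and 0.154 CPM in AC170222. AC3174 2 alone was high, and without it the difference of 2.99 ± 1.80 came to -0.32. Mc4r, the melanocortin receptor downstream of Pomc and Agrp, was at 0, 7.85 and 4.79 CPM in AC3174 and at 0, 1.09 and 6.29 CPM in AC170222, with a library at 0 in each group. Among 27 appetite receptors tested, edgeR called 0. DESeq2 called 1 lower, the insulin receptor gene Insr, against 1.52% of all genes tested. Without overlap, 3 lay above and 1 lay below in AC3174, against 3.54% and 4.49% of all genes tested. Galr1, a galanin receptor, lay above with 2.94, 2.91 and 10.8 CPM in AC3174 and 0.862, 1.68 and 0 CPM in AC170222. Ramp1, an accessory protein of the calcitonin receptor family, was at 38.1, 20.2 and 27.2 CPM in AC3174 and at 17.5, 16.7 and 17.1 CPM in AC170222 (0.74 ± 0.45, adjusted p = 1).

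The gene of smallest unadjusted p in these lists was Insr, the insulin receptor (chromosome 8, 3122061 to 3279617). It was at 0, 0.0163 and 0 CPM in AC3174 and at 0.5, 2.9 and 7.58 CPM in AC170222. The AC3174 libraries lay below all others of the MBH inputs, since the combination had 4.24, 6.05 and 13.1 CPM and saline 1.55, 1.19 and 6.8 CPM. The fitted difference from AC170222 was -8.84 ± 1.91 (adjusted p = 1, edgeR), a value that depends on the prior count, and it was -8.64 against saline (adjusted p = 0.449). DESeq2 called it against AC170222 (adjusted p = 5.98e-06). In DVC input Insr was at 1.26, 10.8 and 5.48 CPM in AC3174 and at 6.02, 1.51 and 15.6 CPM in AC170222, which overlap. In MBH IP it was at 3.83, 0 and 5.38 CPM in AC3174 and at 10.6, 12.6 and 45.8 CPM in AC170222, without overlap and not called (-2.90 ± 3.39). Of the 28 insulin, mTOR and S6 kinase pathway genes edgeR called 0, and DESeq2 called Insr lower, against 1.52% of all genes tested. In that list 16 differences were positive and 12 negative, with a median of 0.09.

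Most immediate early genes overlapped between the drugs. Fos was at 43, 26.8 and 21.2 CPM in AC3174 and at 21.3, 35.4 and 37.8 CPM in AC170222 (log2 difference -0.06 ± 0.42, 95% interval -0.99 to 0.87). Junb, another AP-1 subunit, was at 65, 60.2 and 44.5 CPM in AC3174 and at 40.8, 64 and 35.5 CPM in AC170222 (0.27 ± 0.35). Egr1, an activity-induced zinc finger factor, was at 102, 125 and 156 CPM in AC3174 and at 103, 101 and 129 CPM in AC170222 (0.20 ± 0.50). Each of these overlapped, and the sign of the Fos difference changed in 4 of the 12 fits that left out a library. Nr4a1, an orphan nuclear receptor induced by activity, was at 16.6, 33.5 and 9.73 CPM in AC3174 and at 19.5, 13.4 and 31.2 CPM in AC170222. Arc, which acts in synaptic plasticity, was at 15.2, 0 and 34.3 CPM in AC3174 and at 12.6, 19.4 and 23.3 CPM in AC170222. Npas4 was at 0 in 2 libraries of each drug, and Fosb was at 0 in 2 AC170222 libraries, with 0.0488 to 2.7 CPM in AC3174 and up to 2.24 CPM in AC170222. Of 10 AP-1 genes edgeR and DESeq2 called 0, and 8 had positive differences, with a list median of 0.34.

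In the list of Nr4a and Egr factors 2 of 7 genes lay above in AC3174 without overlap, against 3.54% of all genes tested. In this list edgeR called 0 genes and DESeq2 called 1 higher, Egr3, against 1.03% of all genes tested. Nr4a3 was at 7.52, 16.9 and 3.13 CPM in AC3174 and at 1.45, 3.11 and 2.08 CPM in AC170222 (2.05 ± 0.96, adjusted p = 1, edgeR). Its lowest AC3174 library and highest AC170222 library nearly met. Egr3 was at 1.22, 4.1 and 0.941 CPM in AC3174 and at 0 in all 3 AC170222 libraries, and so at least 132-fold higher than a floor of 3 counts over the AC170222 group (adjusted p = 1, edgeR). In saline Egr3 was at 0.986, 0 and 0.48 CPM. In MBH IP neither gene separated the drugs, and Egr3 in DVC input was at 0 in all 3 AC3174 libraries. Nr4a2 was at 13.1, 38.4 and 26.3 CPM in AC3174 and at 6.17, 32.8 and 4.62 CPM in AC170222. Egr2 went the other way, at 0 in all 3 AC3174 libraries and at 0 to 1.72 CPM in AC170222. It was at 0 in 2 of the AC170222 libraries, so the groups overlapped (-8.15 ± 4.04, a value that depends on the prior count). Of the 7 genes 5 had positive and 2 negative differences. The list median was 0.56, and it was -0.49 with the library set as a covariate.

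Among genes averaging 10 CPM or more, 320 of 9437 (3.39%) lay above in AC3174 without overlap and 418 (4.43%) lay below. The 12 of smallest p in each direction are described here, none of them called by edgeR (adjusted p = 1 for each). They were picked by p in this contrast, so their differences support nothing beyond their values. Kat14, a histone acetyltransferase (chromosome 2, 144368983 to 144407676), was at 47.6, 53.1 and 61.5 CPM in AC3174 and at 16.7, 17.9 and 24 CPM in AC170222 (1.47 ± 0.35). Its saline libraries had 23.5, 43.4 and 46.6 CPM, all under the lowest AC3174 value. Atpaf2, an assembly factor of the mitochondrial ATP synthase, was at 68.2, 93.6 and 79.2 CPM in AC3174 and at 51.9, 34.9 and 41.7 CPM in AC170222, and its saline libraries had 78.8, 81.3 and 63.6 CPM. Mag, the myelin-associated glycoprotein (chromosome 7, 30899176 to 30914873), was at 36.1, 23.9 and 28.4 CPM in AC3174 and at 9.31, 8.26 and 12.7 CPM in AC170222 (1.55 ± 0.44). Here AC170222 lay below all other MBH inputs, as the saline libraries had 35.4, 53.5 and 36.8 CPM.

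Kansl1, a scaffold of a histone acetyltransferase complex, was at 71.7, 82.3 and 99.7 CPM in AC3174 and at 51.1, 53.2 and 50.4 CPM in AC170222 (0.71 ± 0.22). Tug1, a long noncoding RNA, was at 179, 158 and 294 CPM in AC3174 and at 144, 116 and 113 CPM in AC170222 (0.76 ± 0.24). Auts2, a regulator of brain development, was at 27.7, 43.7 and 35 CPM in AC3174 and at 17.4, 10.6 and 15.7 CPM in AC170222. In these 3 genes all AC170222 libraries also lay below all saline libraries. Dock1, an activator of the GTPase Rac, had the widest difference of the 12, with 14.9, 36.8 and 12 CPM in AC3174 and 6.93, 0.77 and 1.57 CPM in AC170222 (2.78 ± 0.93). Dhodh, the mitochondrial enzyme of pyrimidine synthesis, was at 93.1, 132 and 75.4 CPM in AC3174 and at 27.7, 62.6 and 41 CPM in AC170222. Akap9, an anchor of protein kinase A at the Golgi and centrosome, was at 85.4, 179 and 117 CPM in AC3174 and at 47.8, 71.8 and 77.9 CPM in AC170222. The remaining 3 were Naa16, a subunit of an N-terminal acetyltransferase, Trmt2a, a tRNA methyltransferase, and Zfp120, a zinc finger protein. Of the exonic length of Kat14 and Trmt2a, shares of 0.148 and 0.155 overlap another gene, and the libraries keep no strand.

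Gabpb1, a subunit of the ETS factor GABP that drives nuclear genes of mitochondria (chromosome 2, 126627442 to 126676337), was at 10.8, 16.5 and 12.6 CPM in AC3174 and at 33.9, 29 and 42.5 CPM in AC170222 (-1.40 ± 0.34). Its AC3174 libraries lay below all others, with 40.4, 41.4 and 34.6 CPM in the combination and 35.5, 31.5 and 39.6 CPM in saline. Gjc3, a connexin of myelinating glia (chromosome 5, 137953461 to 137963098), was at 13.5, 8.76 and 8.5 CPM in AC3174 and at 39.9, 37.8 and 37.9 CPM in AC170222 (-1.91 ± 0.49), and its saline libraries had 87.4, 32.6 and 31.7 CPM. Mag and Gjc3, both of the oligodendrocyte lineage, thus lay on opposite sides. Calr, a calcium-binding chaperone of the endoplasmic reticulum, was at 30.1, 34.7 and 22.6 CPM in AC3174 and at 43.9, 60.1 and 68.3 CPM in AC170222 (-0.98 ± 0.31). Calr was also lower in all AC3174 libraries than in all saline libraries, which had 76.6, 44.9 and 78.5 CPM.

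Senp8, the protease that processes NEDD8, was at 4.63, 10.5 and 2.75 CPM in AC3174 and at 31.1, 33 and 30.1 CPM in AC170222 (-2.39 ± 0.66), while saline spanned 7.61 to 32.1 CPM. Eif2d, a factor of translation initiation and ribosome recycling, was at 16.6, 18.8 and 18.6 CPM in AC3174 and at 48.7, 41.6 and 64.4 CPM in AC170222 (-1.52 ± 0.43). Nyap2, a neuronal adaptor of phosphoinositide 3-kinase, was at 7.89, 0.407 and 3.64 CPM in AC3174 and at 22.4, 28.2 and 39.6 CPM in AC170222 (-2.92 ± 0.88). For Eif2d and Nyap2 the AC3174 libraries also lay below all saline libraries. Vps50, of an endosomal recycling complex, was at 44.6, 43.4 and 33.7 CPM in AC3174 and at 97.2, 101 and 101 CPM in AC170222, with saline at 36, 21.7 and 74.4 CPM. Rnf6, a ubiquitin ligase, was at 125, 131 and 113 CPM in AC3174 and at 177, 198 and 198 CPM in AC170222 (-0.63 ± 0.17). Chtop, which acts in mRNA export, was at 182, 189 and 185 CPM in AC3174 and at 259, 235 and 282 CPM in AC170222 (-0.48 ± 0.15), the smallest difference of the 12. The others were Stk16, a Golgi kinase whose exons overlap Tuba4a over a share of 0.305, Armt1 and Mb21d2. DESeq2, which called 1.03% of all genes higher and 1.52% lower, called 18 of these 24, a count that the choice by p in the same libraries largely sets.

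**Figure D3:**
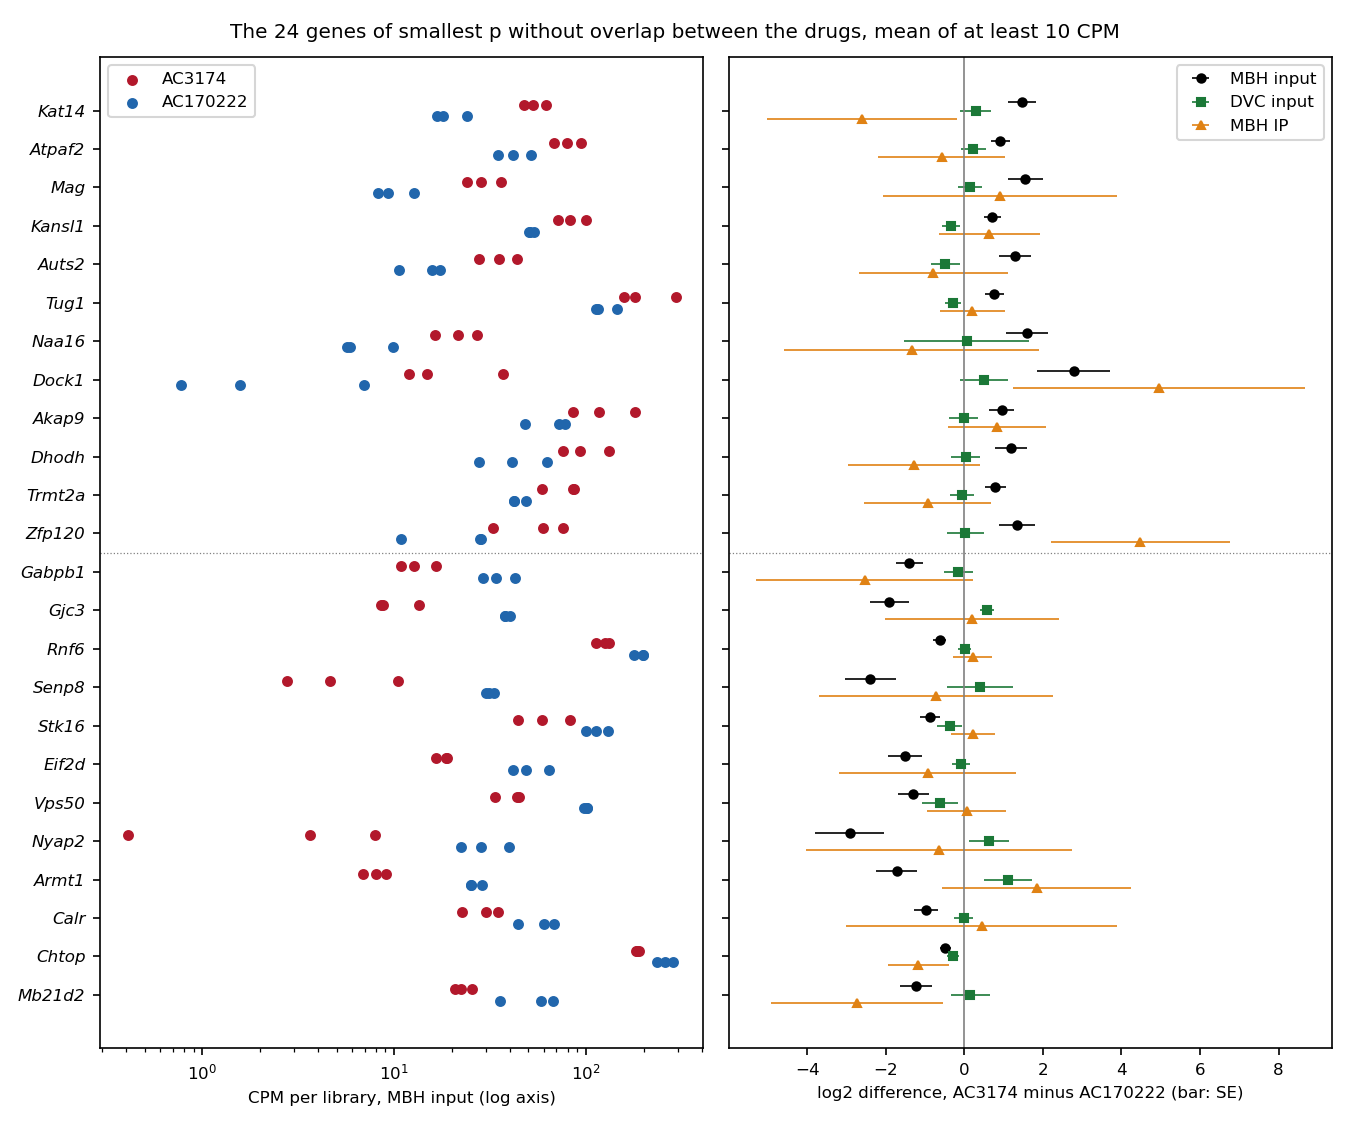
Left, CPM per MBH input library (log axis) of the 24 genes in AC3174 (red) and AC170222 (blue), 12 above and 12 below the dotted line; right, their log2 difference with SE in MBH input, DVC input and MBH IP. The drugs do not overlap in MBH input by the choice of genes, and the DVC input differences lie near 0 for most of them.

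The same genes were followed in the other 3 kinds of library, which the choice did not use. Of the 12 genes above in AC3174, 6 had a positive difference in MBH IP, 7 in DVC input and 7 in DVC IP, where 44%, 50.7% and 45.1% of all genes tested did. Of the 12 below, 6, 6 and 7 had a negative one, and 0 of the 24 were called anywhere (lowest adjusted p = 1, edgeR). None had an unadjusted p under 0.05 in the same direction, which 2.72% of all genes in MBH IP, 4.19% in DVC input and 4.49% in DVC IP had in either direction. Kat14 was at 47.7, 20.3 and 40 CPM in AC3174 and at 21.5, 31.3 and 35.3 CPM in AC170222 in DVC input (0.29 ± 0.40), where the groups overlapped. Gabpb1 overlapped there too, with 30.9, 21.2 and 34.4 CPM in AC3174 and 42.9, 34 and 19.8 CPM in AC170222. Gjc3 lay the other way in DVC input, at 119, 98.2 and 119 CPM in AC3174 and at 70.2, 81.6 and 72.8 CPM in AC170222 (0.58 ± 0.17, adjusted p = 1, edgeR). The test of the difference between the regions gave a log2 of -2.49 for Gjc3 (adjusted p = 0.53, edgeR). In MBH IP these genes had libraries at 0 or near it, as Mag at 21.1, 21.7 and 0 CPM in AC3174 and 22.5, 0.341 and 0 CPM in AC170222.

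Across all genes the regions were compared directly. Of 18576 genes tested for a difference between MBH input and DVC input in the AC3174 versus AC170222 contrast, 1 was called (0.00538%), and 945 (5.09%) had an unadjusted p under 0.05. That gene was Akain1, whose product binds protein kinase A and inhibits its anchoring, and its call was lost in 13 of 18 alternatives. Between MBH IP and MBH input 0 of 17461 genes were called by edgeR, limma-voom called 3 and DESeq2 called 1120, and 930 genes (5.33%) had an unadjusted p under 0.05. The IP comparison depends on single libraries, with 599 genes called without AC3174 IP 1 and 28 without AC170222 IP 1. Input and IP came from the same homogenates per the labels' protocols, so these libraries are not independent of each other.

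The well numbers in the library codes of the titles fall into 3 sets, within which the S numbers of the codes do not repeat among the 12 MBH inputs. AC3174 1 was in set 2 and AC3174 2 and 3 in set 3, whereas AC170222 1 and 2 were in set 1 and AC170222 3 in set 2. The labels do not say what a set is, and set and drug can be told apart only through set 2, with 1 library of each drug, and through the other treatments. With the set as a covariate 0 genes were called, and all 24 genes above kept their direction, with differences of 0.41 to 3.14 in size on the log2 scale. This is not a check of the choice, since the same libraries chose them.

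Cell type markers were compared as lists. Of the 795 genes tested in the 44 lists edgeR called 0, and DESeq2 called 6 higher and 7 lower, against 1.03% and 1.52% of all genes. The 16 neuronal markers had a median difference of 0.03 and a summed level of 8810 to 9340 CPM in AC3174 and 8780 to 9530 CPM in AC170222. The 16 astrocyte genes had a median of -0.27, with 6 positive and 10 negative. Slc1a3, the astrocyte glutamate transporter, was at 47.5, 44.6 and 35.4 CPM in AC3174 and at 62.8, 71.9 and 58.7 CPM in AC170222 (-0.60 ± 0.39), without overlap. The 17 myelin and oligodendrocyte genes had a median of -0.14, with sums of 1950 to 2550 CPM in AC3174 and 1690 to 2800 CPM in AC170222. Mog, a myelin surface protein, was at 11.1, 6.2 and 21 CPM in AC3174 and at 23.7, 17.6 and 18 CPM in AC170222, whereas Aspa, an enzyme of oligodendrocytes that breaks down N-acetylaspartate, was at 46.8, 14.6 and 48.7 CPM in AC3174 and at 12.9, 29.8 and 12.7 CPM in AC170222.

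The 12 oligodendrocyte precursor genes had a median of 0.75, with 8 positive and 4 negative differences. Their sums of 278 to 343 CPM in AC3174 lay above those of 181 to 274 CPM in AC170222. Olig1 alone was at 146 to 159 CPM in AC3174 and at 46.5 to 130 CPM in AC170222. DESeq2 called Bmp4 and Cspg4 higher, against 1.03% of all genes tested. Both had 0 counts in 2 AC3174 libraries and in all 3 AC170222 libraries. Pdgfra, the growth factor receptor that marks oligodendrocyte precursors, was at 18.6, 14.8 and 22.3 CPM in AC3174 and at 5.57, 8.82 and 1.23 CPM in AC170222 (1.83 ± 1.56, adjusted p = 1, edgeR). Among the negative ones were Neu4 (-0.54) and Sox10 (-0.22). The list median was -0.68 with the library set as a covariate, so its direction was not stable. Nes, an intermediate filament of tanycytes and progenitors, was at 12.4, 11.3 and 8.7 CPM in AC3174 and at 0.466, 3.9 and 1.4 CPM in AC170222, while the 19 tanycyte and ependymal genes had a median of 0.17. Dcn, an extracellular matrix proteoglycan of fibroblasts, was at 21.8, 12.9 and 17.5 CPM in AC3174 and at 4.38, 3.57 and 7.8 CPM in AC170222 (1.73 ± 0.88). The list of 14 meningeal and fibroblast genes, which includes Dcn, had 10 negative differences and a median of -0.67.

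**Figure D4:**
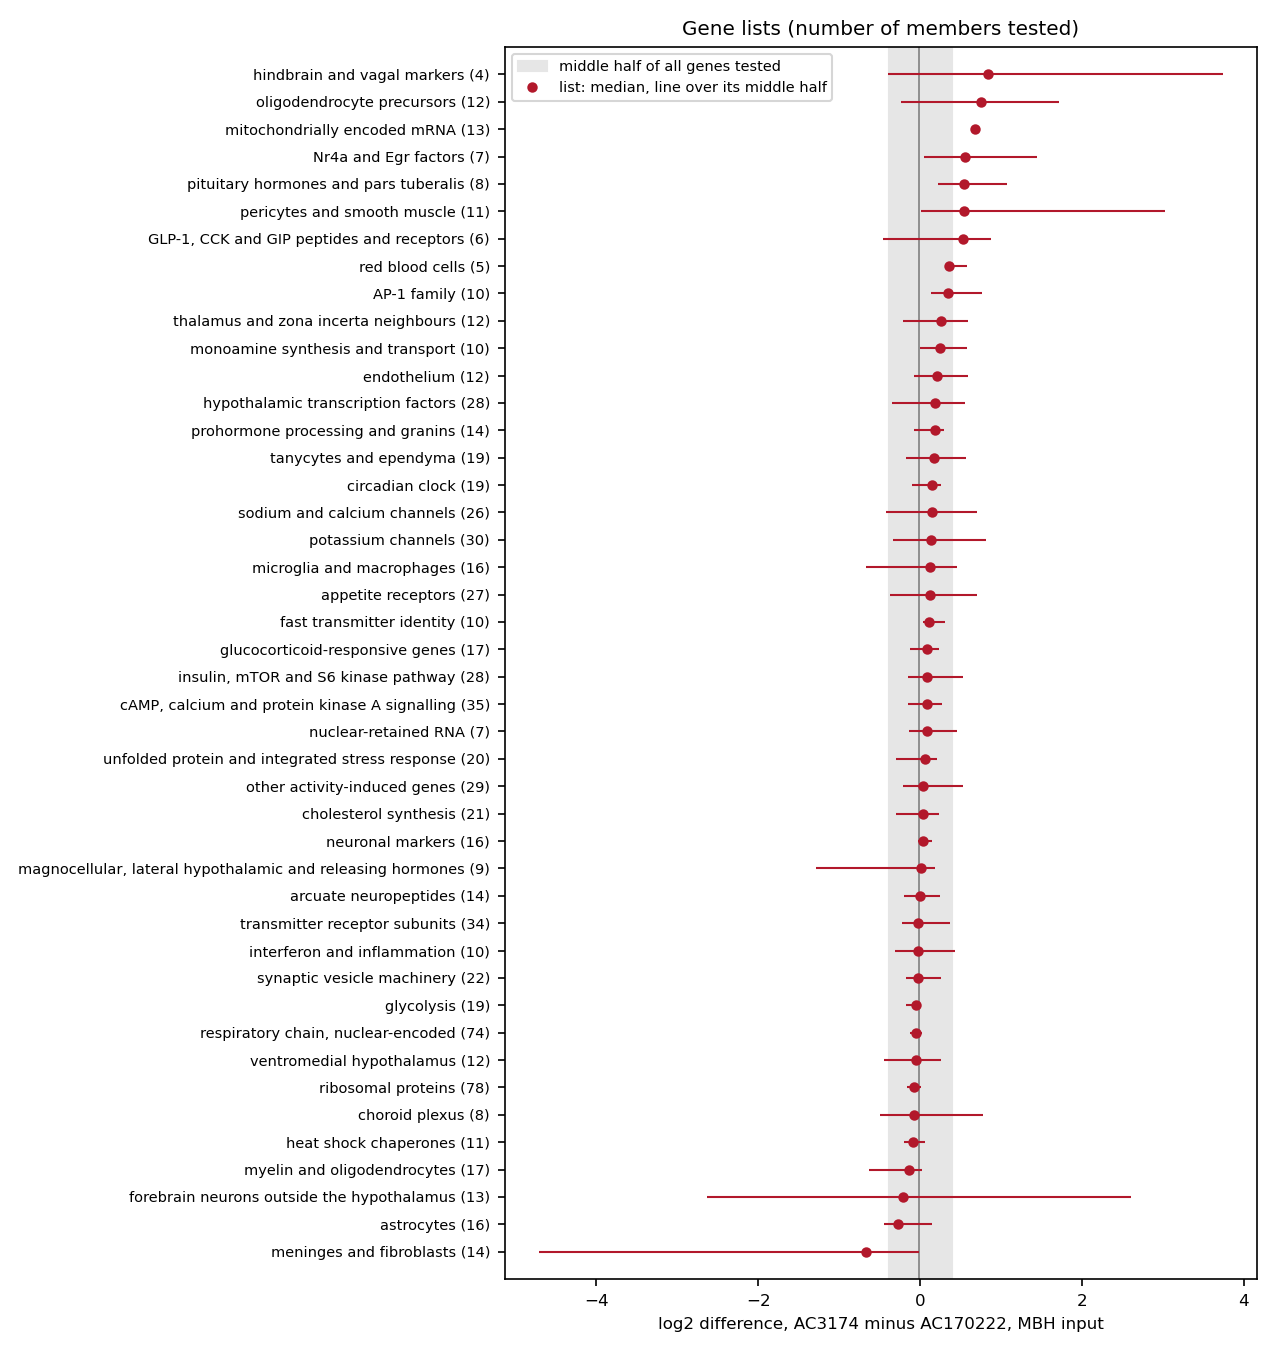
Median log2 difference between AC3174 and AC170222 in MBH input (points) with the interquartile range (lines) for the 44 gene lists, with the number of members tested in brackets; the grey band is the interquartile range of all genes tested, around its median of -0.01. Lists of many well-expressed genes, such as 78 ribosomal protein and 74 respiratory chain genes, lie close to 0, and the widest ranges belong to short lists with members at or near 0 counts.

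The 13 mitochondrially encoded mRNAs, which code for respiratory chain subunits, all had positive differences, with a median of 0.68, and edgeR and DESeq2 called 0. Their sum was 16200, 3880 and 1810 CPM in AC3174 and 7690, 1650 and 4550 CPM in AC170222. The groups overlapped, AC3174 1 was far above the rest, and without it the list median was -0.62. In the other treatments the sum was 7200, 2150 and 1880 CPM with the combination and 10900, 6940 and 1280 CPM with saline, so library 1 was the highest of its treatment in all 4. mt-Co1, a catalytic subunit of cytochrome c oxidase, was at 2600, 701 and 300 CPM in AC3174 and at 1280, 212 and 654 CPM in AC170222 (0.75 ± 0.97). Red blood cell genes summed to 131, 71.8 and 22.1 CPM in AC3174 and to 99.5, 46.5 and 25.6 CPM in AC170222. In that list library 1 was the highest of both drugs and of the combination (36.4, 28.1 and 26.5 CPM), but library 2 was the highest of saline (125, 181 and 37.1 CPM). Whether the mitochondrial values move with blood in the tissue was not tested. Nuclear-encoded respiratory chain genes had a median of -0.05, with 22 positive and 52 negative, and ribosomal protein genes one of -0.07, with 22 positive and 56 negative.

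**Figure D5:**
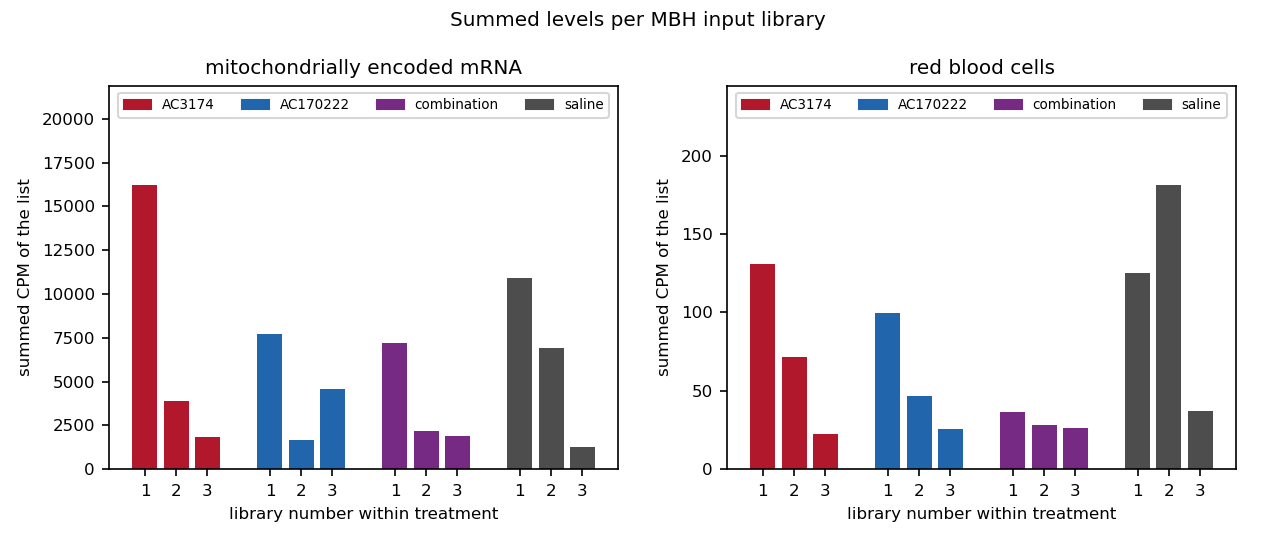
Summed CPM of the mitochondrially encoded mRNAs (left) and of the red blood cell genes (right) in each of the 12 MBH input libraries, by treatment and library number, with bars starting at 0. The mitochondrial sum is highest in library 1 of every treatment, at 16200 CPM in AC3174 and 7690 CPM in AC170222.

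Among the metabolic, stress and further activity-induced lists edgeR called no gene. DESeq2 called Calr and Insr lower, against 1.52% of all genes tested. Of the genes named here, Slc2a3 lay above in AC3174 without overlap, and Calr, Insr and Klf6 lay below. Of all genes tested, 3.54% lay above and 4.49% below. Slc2a3, the neuronal glucose transporter, was at 63.7, 57.1 and 44.8 CPM in AC3174 and at 21.9, 33.7 and 21.1 CPM in AC170222 (1.11 ± 0.42, adjusted p = 1, edgeR), while the 19 glycolysis genes had a median of -0.05. Sesn2, a stress-induced inhibitor of mTOR signalling, was at 9.9, 7.49 and 25.8 CPM in AC3174 and at 42.1, 25.3 and 27.8 CPM in AC170222 (-1.14 ± 0.49, adjusted p = 1, edgeR), and the groups overlapped narrowly. The 21 cholesterol synthesis genes had a median of 0.04, with 11 positive and 10 negative differences. Their sum of 1100 to 1280 CPM in AC3174 lay below that of 1330 to 1380 CPM in AC170222. Hmgcs1, an early enzyme of that pathway, made up a large part of these sums. It was at 329, 169 and 436 CPM in AC3174 and at 456, 411 and 446 CPM in AC170222 (-0.49 ± 0.31). The lower sum is therefore not a decrease shared by the list. Fkbp5, a glucocorticoid-induced chaperone partner, was at 42.8, 39.9 and 63.6 CPM in AC3174 and at 12.1, 19.7 and 50.6 CPM in AC170222, against 9.53, 4.63 and 15 CPM in saline. Neither drug's difference in Fkbp5 from saline was called (2.33 ± 0.62 for AC3174 and 1.5 ± 0.60 for AC170222, adjusted p = 0.56 and 0.709, edgeR). Klf6, an immediate early zinc finger factor, was at 75.6, 65.1 and 76.5 CPM in AC3174 and at 99.1, 108 and 99.8 CPM in AC170222 (-0.50 ± 0.24). In DVC input Klf6 was at 53.8, 58.3 and 47 CPM in AC3174 and at 75.5, 64.7 and 59.4 CPM in AC170222, also without overlap and not called (-0.33 ± 0.18, adjusted p = 1, edgeR).

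Among ion channels, transmitter receptors and hypothalamic transcription factors edgeR called 0. DESeq2 called Kcnq3 higher and Hcn4 and Grm3 lower, against 1.03% and 1.52% of all genes tested. Without overlap, 2 of 30 potassium channels and 2 of 28 hypothalamic factors lay above in AC3174. Of 26 sodium and calcium channels 2 lay above and 2 below, against 3.54% and 4.49% of all genes tested. Glra1, a glycine receptor subunit, was at 2.54, 3.92 and 5.72 CPM in AC3174 and at 0.845, 1.12 and 0.848 CPM in AC170222 (2.11 ± 1.10, adjusted p = 1, edgeR). The 34 transmitter receptor subunits had a median of -0.02. Six3, a forebrain patterning factor, was at 19.6, 40.8 and 20.6 CPM in AC3174 and at 13.5, 16.8 and 16.5 CPM in AC170222 (0.79 ± 0.48), and the 28 hypothalamic transcription factors had a median of 0.19. Snhg11, a neuronal long noncoding RNA, was at 395, 491 and 364 CPM in AC3174 and at 272, 291 and 238 CPM in AC170222, with saline at 185 to 888 CPM. Pitx1, a pituitary transcription factor, was at 14.8, 15.4 and 8.86 CPM in AC3174 and at 4.93, 6.65 and 1.71 CPM in AC170222. The pituitary list summed to 118 to 172 CPM in AC3174 and 93.5 to 163 CPM in AC170222, and among its hormone genes Prl, Gh and Fshb were at or near 0, Cga was at 4.31 to 11.1 CPM in AC3174 and 0 to 6.28 CPM in AC170222, and Tshb reached 3.34 CPM in AC3174 and 2.01 CPM in AC170222.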

How the data were processed

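RNA of 48 mouse libraries was amplified with a SMART-Seq v4 kit and tagmented, so strand is lost. The submitters' processing notes name GRCm38, HTSeq 0.6.1p1 and TopHat2 2.0.11; the annotation used is not given there. The authors deposited raw read counts per gene for 38293 Ensembl identifiers, of which 36429 were matched to GENCODE M21 symbols. The 12 MBH inputs were fitted together with edgeR 4.0.16 (TMM, filterByExpr with a minimum count of 10, 2-sided quasi-likelihood F test; R 4.3.3), with the contrast AC3174 minus AC170222, and Benjamini-Hochberg adjustment over all genes tested. Values after ± are SE, and CPM use TMM-scaled libraries. Interactions over 24 libraries compared regions and RNA kinds. Named genes were the 12 per direction of smallest p without overlap at a mean of at least 10 CPM, 18 genes of feeding and activity, and up to 4 genes of smallest p in each of 44 lists, of which the text shows a part. The members and lists were chosen with earlier results of these data known. Alternatives were other scaling, filters, libraries in the fit, DESeq2 1.42.0, limma-voom 3.58.1, a block on sample number, a library-set covariate and leaving out each library. No library was a copy of another (lowest chi-square per degree of freedom 142). Nothing says that libraries of a group came from separate mice, so p-values measure the spread between these libraries, which may be technical. Reads carried no molecular identifiers, so floors cover counting error only.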

Additional observations from a re-analysis of the deposited data

Results flagged for a closer look

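Akain1, whose product binds protein kinase A and inhibits its anchoring (chromosome 17, 69439326 to 69489233 on GRCm38), was the gene whose AC3174 versus AC170222 difference passed the test of a difference between the regions. In MBH input it was at 0.132, 0 and 0.0543 CPM in AC3174 and at 7.35, 3.1 and 5.18 CPM in AC170222 (log2 difference -6.38 ± 1.5, adjusted p = 1, edgeR). The AC3174 libraries also lay below the combination, at 6.81, 5.48 and 14.3 CPM, and below saline, at 5.8, 19.5 and 4.88 CPM. In DVC input it was at 68.6, 42.1 and 48.3 CPM in AC3174 and at 41.6, 39.1 and 35 CPM in AC170222, which do not overlap in the opposite direction (0.46 ± 0.32, adjusted p = 1, edgeR). The MBH input difference minus the DVC input difference was -6.92 on the log2 scale (adjusted p = 0.0462, edgeR). In MBH IP the gene was at 2.56, 0 and 0 CPM in AC3174 and at 0 in all 3 AC170222 libraries, with the combination at 13.9, 10 and 11.8 CPM and saline at 2.11, 7.23 and 0 CPM, so AC3174 did not lie below AC170222 there. The call lay close to the threshold and was lost in 13 of 18 alternatives, and over all 18 its difference stayed between -7.97 and -6.27.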

How the results depend on the processing

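The count of 0 genes called in MBH input held in edgeR and limma-voom fits under every alternative run, including all 12 that left out a library, and DESeq2 gave 424. The difference between the regions was called for 1 gene, against 0 with DESeq2's size factors, 2 with the 12 libraries of the drugs alone, 733 with DESeq2, 2 with limma-voom, and 0 to 9 without single libraries (9 without AC3174 MBH input 3, 3 without AC3174 MBH input 1 or 2). Between MBH IP and MBH input DESeq2 called 1120, limma-voom 3, and the fits without single libraries 0 to 599. DESeq2 gave no adjusted p for 608 of the MBH input genes. Pairing by sample number was looked at with an r that is a different quantity from the correlations of levels between libraries given earlier. By that r, same-numbered libraries of different treatments had a median of 0.026 (2 of 18 pairs over 0.1) and others -0.015 (3 of 36). Correlations this weak cannot settle whether sample numbers pair the libraries, and the mitochondrially encoded sum was highest in library 1 of every treatment. With the replicate block 0 genes were called in MBH input (385 at an unadjusted p under 0.05), 0 between the regions, and the list medians were 0.98 for Nr4a and Egr factors, -0.68 for magnocellular, lateral hypothalamic and releasing hormones, 0.05 for thalamic neighbours, 0.34 for potassium channels and 1.21 for oligodendrocyte precursors; Npas4 reversed to -5.38.

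With the library set as a covariate Fosb (-1.66), Pomc (-0.09), Fos (0.05), Cartpt (0.30), Cckar (0.11), Egr1 (-0.78), Npas4 (-5.42) and Mc4r (-1.92) reversed. The list medians there were 1.18 for GLP-1, CCK and GIP genes, -0.47 for appetite receptors, -0.49 for Nr4a and Egr factors, 1.56 for pituitary, -0.24 for monoamine, -0.30 for hypothalamic transcription factors, -0.10 for thalamic, 4.34 for hindbrain, -0.54 for tanycyte, -0.68 for oligodendrocyte precursor, -0.83 for microglial, 0.96 for endothelial, 0.62 for choroid plexus, 2.11 for red blood cell, 2.27 for mitochondrially encoded, 0.85 for nuclear-retained, 0.42 for ribosomal protein, 0.41 for respiratory chain, -0.25 for heat shock, -0.35 for clock, 0.42 for glucocorticoid-responsive and -0.18 for cAMP and calcium genes. Without the filter the hindbrain median was 0. With the 6 libraries alone it was -1.03, the monoamine median 0.07 and the precursor median 0.37. With limma-voom Cck reversed to -0.16, and the thalamic median was 0.07 and the precursor median 1.14.

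Without single libraries the log2 differences spanned -0.71 to 0.27 for Nr4a1, -0.08 to 1.2 for Cckbr, -0.54 to 1.07 for Cck, -0.53 to 1.48 for mt-Co1, -0.40 to 0.14 for Fos, -1.27 to 0.43 for Arc, -0.02 to 2.96 for Mc4r, -0.32 to 3.90 for Lepr, -3.50 to 8.86 for Fosb, -0.26 to 0.14 for Cartpt, -9.84 to 10.83 for Npas4 and -0.10 to 0.35 for Pomc. List medians spanned -0.29 to 0.96 for GLP-1, CCK and GIP genes, -1 to 4.90 for hindbrain, -0.34 to 0.94 for interferon, -0.71 to 0.21 for magnocellular and releasing hormones, -3.44 to 0 for meninges, -0.92 to 0.33 for microglia, 0.03 to 0.31 for monoamine, 0.21 to 0.62 for Nr4a and Egr, -0.24 to 0.51 for nuclear-retained, 0.32 to 1.05 for oligodendrocyte precursors, 0 to 1.02 for pericytes, 0.07 to 0.49 for potassium channels and -0.09 to 0.26 for thalamic genes. The cause of these moves was not tested. The 24 genes of smallest p without overlap kept their direction in all 21 alternatives. That is no check of them, since the same libraries chose them for groups that do not overlap. Intervals were widest for genes under 10 CPM, and 53.5% of those at 1 to 10 CPM had a 0 in at least 1 of the 6 libraries.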

Other observations

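A further 61 genes (0.367% of those tested) had 0 counts in all 3 AC3174 libraries, counts in all 3 AC170222 libraries and a mean of at least 1 CPM, and 27 (0.162%) had the reverse; this rule and these genes were chosen after their values were seen. Galm, an enzyme that interconverts forms of galactose, was at 0 in AC3174 and at 5.81 to 15 CPM in AC170222, and so at least 460-fold lower than AC170222 over a floor of 3 counts for the AC3174 group (adjusted p = 1, edgeR). Tbx19, a transcription factor of pituitary cells that make Pomc, was at 0 in AC3174 and at 4.21, 10 and 4.47 CPM in AC170222, with saline at 0.0137, 0 and 0.253 CPM. Crh, corticotropin-releasing hormone, was at 0 in AC3174 and at 2.16, 1.93 and 1.17 CPM in AC170222, with saline at 0.616, 0.756 and 0 CPM. The pacemaker channel gene Hcn4 was at 0 in AC3174 and at 0.517, 0.635 and 4.67 CPM in AC170222. Kcnk9, a leak potassium channel, was the other way, at 3.47, 0.0163 and 0.0543 CPM in AC3174 and 0 in AC170222. Of Tbx19, Crh, Hcn4 and Kcnk9, DESeq2 called Tbx19 and Hcn4 lower, against 1.52% of all genes tested, and edgeR called none. With the combination Galm, Tbx19, Hcn4 and Kcnk9 had counts in all 3 libraries, and Crh had 0 counts in 2 of them.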
